A study of Mus musculus with 8 samples.

Results

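Oxidative phosphorylation genes were taken from the gene table of a mouse retina RNA sequencing series by their symbols. A gene was a member if its symbol began with mt-Nd, mt-Co, mt-Cytb or mt-Atp, or with Nduf, Uqcr, Cox4 to Cox8 or Atp5, or was Sdha, Sdhb, Sdhc or Sdhd. The table holds 26824 genes and 110 of them matched, and 1 symbol containing -ps was left out, which gave 109 members. Of these, 13 are encoded in mitochondrial DNA and 96 in the nucleus. The mitochondrial members comprise 7 subunits of complex I, 1 of complex III, 3 of complex IV and 2 of complex V. The nuclear members comprise 40 genes of complex I, 4 of complex II, 8 of complex III, 18 of complex IV, 18 of complex V and 8 assembly factors of complex I (Ndufaf genes).

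The series compares wild-type (WT) mice with mice labelled as knockouts (KO) of Kv8.2, the potassium channel subunit encoded by Kcnv2. Retinas were collected at 1 month of age without treatment, and the 2 retinas of a mouse were pooled in each library. There are 3 WT libraries (WT 1 to WT 3) and 5 KO libraries (KO 2 to KO 6). The labels give no strain and do not describe the knockout allele, and the submitters state that 2 KO samples, which they do not name, were left out of their own analysis, so all 8 libraries are used here.

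Oxidative phosphorylation couples the oxidation of NADH and succinate to the synthesis of ATP at the mitochondrial inner membrane. Complexes I, III and IV pump protons, complex II feeds electrons from succinate, and complex V, the ATP synthase, uses the proton gradient. Complexes I, III, IV and V are built from subunits of both genomes, whereas complex II is encoded in the nucleus alone. Photoreceptors hold densely packed mitochondria in their inner segments and use much ATP for ion transport.

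The libraries held 17759146 to 25188870 counts, and the floor of 3 counts corresponded to 0.119 to 0.169 CPM (counts for each 1000000 counts of a library, after TMM scaling where a gene's level is given). Markers of rods, cones, bipolar, amacrine, ganglion and Müller cells were present in every library. The summed level of 8 cone markers was 961 to 1202 CPM in WT and 695 to 913 CPM in KO. Markers of endothelium were at 136 to 143 CPM in WT and 186 to 282 CPM in KO, of pericytes at 86.7 to 98.6 and 103 to 125 CPM, and of microglia at 16.6 to 19.8 and 22.7 to 32.6 CPM. These 4 sums did not overlap between the groups, and their part in the results below was not tested. Of all genes tested, 10.1% lay lower in every KO library than in every WT library and 10.8% higher. EdgeR called 3 of 8 cone markers lower and 1 higher, and 2 of 6 Müller glia, 2 of 5 microglia, 1 of 4 endothelium and 1 of 4 pericyte markers higher, where 2.84% of all genes were called lower and 4.74% higher. It also called 1 of 10 rod markers higher, and 1 of 7 bipolar and 1 of 7 amacrine and horizontal markers lower. In these bulk samples fewer cells of a type and less RNA per cell cannot be told apart. Kcnv2 itself was at 519 to 551 CPM in WT. KO 2 was above this range at 585 CPM, KO 3 below it at 447 CPM, and KO 4 to KO 6 had 398, 409 and 409 CPM. It was not called over all libraries (edgeR adjusted p 0.275) but was lower in KO 4 to KO 6 against WT (log2 fold change -0.38, edgeR adjusted p 0.000116). Transcript thus remained in every library labelled KO, and KO refers to the label throughout. The first principal component of 20053 genes, computed without the members, held 38.9% of the variance. It put KO 4, KO 5 and KO 6 at 44.2, 51.7 and 56.9 and the other 5 libraries between -39.3 and -11.0. On the second component, with 16.7% of the variance, KO 2 and KO 3 lay at -48.0 and -37.4, WT between 21.1 and 27.0 and KO 4 to KO 6 between -0.78 and 8.58. KO 2 and KO 3 thus stood apart from WT too, on another axis. The labels name no batch, and what sets these libraries apart was not tested. Results are therefore also given for KO 2 and KO 3 against WT and for KO 4, KO 5 and KO 6 against WT. These comparisons share the WT libraries, and the KO sets were formed from the data. KO 2 and KO 3 are not alike: the chi-square per degree of freedom between their counts was 110.03, against 44.0 between KO 2 and KO 4 and 5.85 to 6.92 within KO 4 to KO 6. Lens markers summed to 44640 CPM in KO 3, 25.0 to 1518 CPM in WT and 0.866 to 9.65 CPM in KO 4 to KO 6. Other sums also set KO 4 to KO 6 apart from WT: rod markers were at 50190 to 54661 CPM there and 44521 to 48372 CPM in WT, and red blood cell markers at 19.0 to 24.7 and 31.6 to 68.7 CPM. The part of these in any result was not tested.

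Transcripts of the 13 mitochondrially encoded members made up a smaller share of counts in every KO library than in any WT library. The share was 6.87%, 7.65% and 7.32% in WT 1 to WT 3. In KO 2 it was 6.29% and in KO 3 5.07%, whereas KO 4 to KO 6 had 3.501%, 3.39% and 2.86%. The groups did not overlap, but KO 2 lay close to WT and KO 4 to KO 6 lay far below it. The mean was 7.28% ± 0.394 in WT (SD, n = 3) and 4.22% ± 1.42 in KO (SD, n = 5). The widest 95% Wilson interval, which covers counting error only, was that of WT 1, at 6.85% to 6.88%.

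The 96 nuclear members together took a much smaller share, and it differed less. Their share of counts was 0.772%, 0.853% and 0.744% in WT 1 to WT 3 and 0.663%, 0.693%, 0.752%, 0.770% and 0.728% in KO 2 to KO 6. The groups overlapped, with means of 0.790% ± 0.0568 (SD, n = 3) and 0.721% ± 0.0433 (SD, n = 5). KO 2 and KO 3, which had the most mitochondrial transcript among the KO libraries, had the least nuclear transcript.

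The ratio of mitochondrially encoded to nuclear counts was 8.89, 8.97 and 9.85 in WT 1 to WT 3. It was 9.48 in KO 2, within the WT range, 7.31 in KO 3, and for KO 4 to KO 6 it was 4.66, 4.40 and 3.93. The mean was 9.24 ± 0.531 in WT (SD, n = 3) and 5.96 ± 2.37 in KO (SD, n = 5). On the log2 scale KO minus WT was -0.72 over all libraries, -0.15 with KO 2 and KO 3 alone and -1.10 with KO 4 to KO 6. No test was made of these sums, since the members were chosen with results of these data known.

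**Figure D1:**
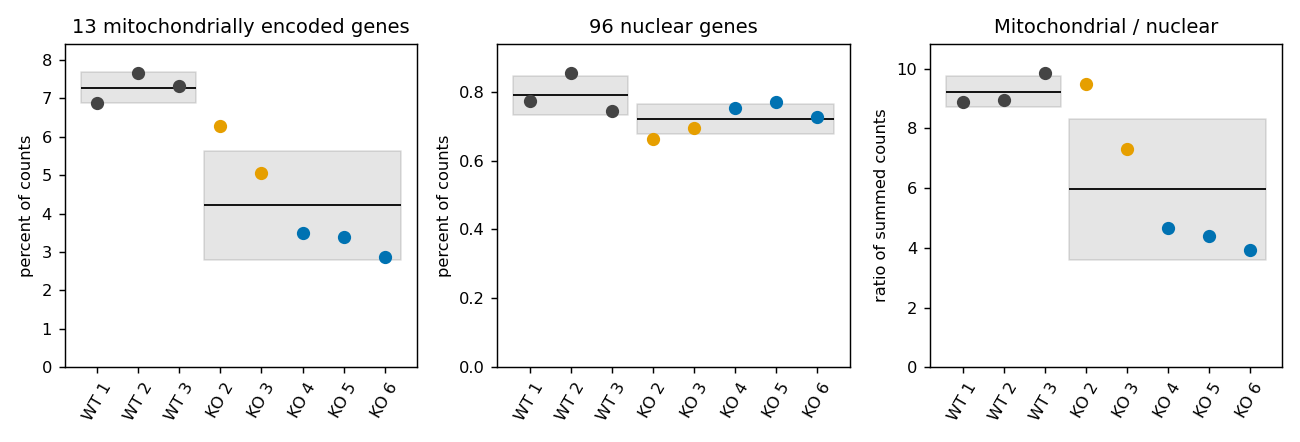
Share of all counts (percent) taken by the 13 mitochondrially encoded and the 96 nuclear members, and the ratio of these summed counts, for each library. Points are libraries (grey WT, orange KO 2 and KO 3, blue KO 4 to KO 6), lines are group means and bands are 1 SD; the mitochondrial share is 6.87% or more in WT and 3.501% or less in KO 4 to KO 6, while the nuclear shares of the groups overlap.

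Gene by gene, all 13 mitochondrially encoded members had a lower mean in KO, with log2 fold changes between -0.43 and -1.19 and a median of -0.71. The median over all 20167 genes tested was 0.00. By the quasi-likelihood test of edgeR, with p adjusted by Benjamini-Hochberg over all genes and a threshold of 0.05, 1 of the 13 was called lower, against 7.58% of all genes called in either direction and 2.84% called lower. Every KO library lay below every WT library for 5 of the 13, against 10.1% of all genes tested. Those 5 were mt-Cytb, mt-Co1, mt-Co3, mt-Atp6 and mt-Atp8. The 7 complex I genes overlapped between the groups, each through KO 2 alone.

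The gene that passed was mt-Co1, which encodes the catalytic subunit of cytochrome c oxidase. WT 1 to WT 3 had 14669, 17296 and 16061 CPM of it, whereas KO 2 to KO 6 had 13391, 11201, 7909, 8132 and 6561 CPM. All KO libraries lay below WT, and KO 4 to KO 6 were at about the same low level. This gave a log2 fold change of -0.76 (SE 0.20, edgeR adjusted p 0.0470). The call was lost without any 1 WT library or without KO 4, KO 5 or KO 6, with edgeR adjusted p from 0.0809 without KO 6 to 0.183 without WT 2. With KO 2 left out, all 13 mitochondrial genes were called lower (6.23% of all genes were), and with KO 3 left out 4 were (7.85% of all genes).

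Of the other core subunits of complex IV, mt-Co2 is the next member along the genome and mt-Co3 lies beyond the complex V pair. mt-Co3 was at 6106, 7473 and 6464 CPM in WT and at 5815, 4515, 3264, 3076 and 2408 CPM in KO 2 to KO 6, with a log2 fold change of -0.81 (SE 0.24) and an edgeR adjusted p of 0.0643. mt-Co2, which carries the copper center that accepts electrons from cytochrome c, was at 5125, 4764 and 7526 CPM in WT and 7634, 4577, 3477, 3385 and 2520 CPM in KO 2 to KO 6. Its WT libraries were spread more widely than those of mt-Co1 or mt-Co3, and KO 2 was above all of them. This gave a log2 fold change of -0.43 (SE 0.31, edgeR adjusted p 0.396).

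The complex V pair had the lowest log2 fold changes with mt-Nd3 and mt-Nd6. mt-Atp6, the subunit that forms the proton path of the ATP synthase, was at 6265, 7655 and 6393 CPM in WT and 5741, 4977, 2452, 2383 and 1847 CPM in KO 2 to KO 6. Its log2 fold change was -0.96 (SE 0.33, edgeR adjusted p 0.0954). mt-Atp8, a short membrane subunit, was at 1881, 2264 and 1702 CPM in WT and 1678, 1257, 530, 451 and 365 CPM in KO 2 to KO 6, with a log2 fold change of -1.19 (SE 0.44, edgeR adjusted p 0.115). Each KO library lay below the WT range in both. These genes share bases: the last 43 bases of mt-Atp8 are the first 43 of mt-Atp6 (chrM:7927-7969, GRCm38, plus strand), so reads there cannot be assigned to 1 gene. The shared stretch is shown because it is a large part of the shorter gene, with the start codon of mt-Atp6 in capitals.
mt-Atp8 and mt-Atp6 overlap: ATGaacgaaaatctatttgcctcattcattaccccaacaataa

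mt-Cytb, the catalytic subunit of complex III that is encoded in mitochondria, was at 8835, 10215 and 9018 CPM in WT and 8235, 6823, 4929, 4969 and 4193 CPM in KO 2 to KO 6. The groups did not overlap. This gave a log2 fold change of -0.68 (SE 0.20, edgeR adjusted p 0.0588).

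The complex I genes encode the membrane arm that pumps protons. mt-Nd1 was at 5032, 6111 and 5747 CPM in WT and 5655, 3952, 2687, 2651 and 2243 CPM in KO 2 to KO 6 (log2 fold change -0.71, edgeR adjusted p 0.111). mt-Nd4 was at 5587, 6202 and 5390 CPM in WT and 5912, 4652, 2637, 2359 and 2154 CPM in KO 2 to KO 6 (log2 fold change -0.69, edgeR adjusted p 0.169). In both, KO 2 lay within the WT range and the other 4 KO libraries below it. Of the others, mt-Nd2 had a log2 fold change of -0.71, mt-Nd3 of -1.01, mt-Nd4l of -0.48, mt-Nd5 of -0.59 and mt-Nd6 of -0.99, and none passed the edgeR test.

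mt-Nd6 is the only member transcribed from the other strand of the mitochondrial genome (chrM:13552-14070, GRCm38, minus strand). It was at 2041, 2344 and 1953 CPM in WT, 2288 and 1520 CPM in KO 2 and KO 3, and 525, 529 and 446 CPM in KO 4 to KO 6. The gap between KO 3 and KO 4 was wider than in the complex I genes of the plus strand. Whether counting used strand is not given in the sources used here, so reads of opposite transcripts over mt-Nd6 cannot be told apart.

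**Figure D2:**
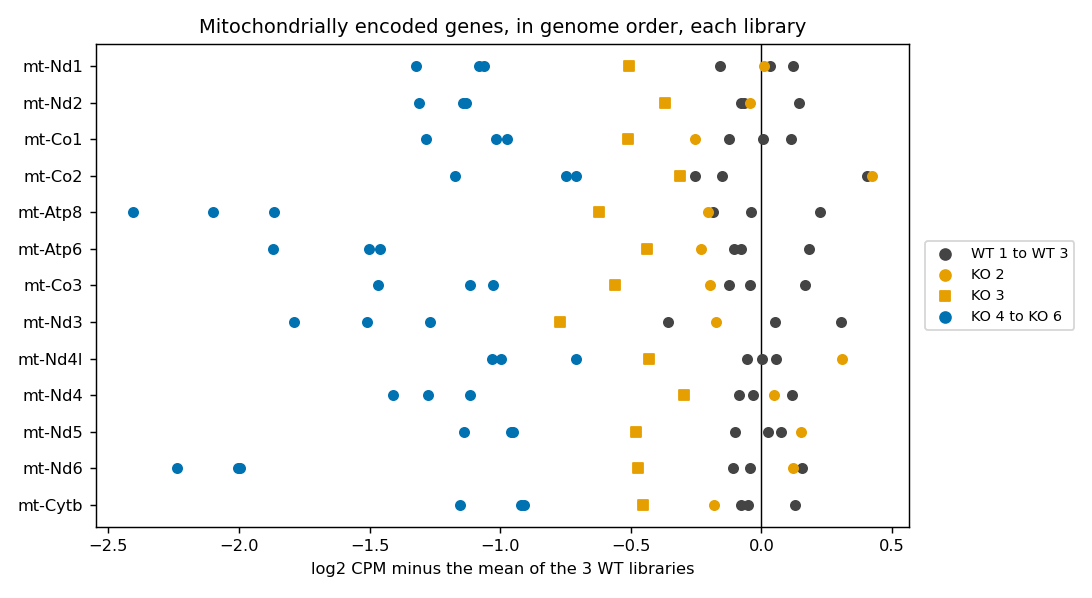
Level of each mitochondrially encoded member in each library, as log2 CPM minus the mean of the 3 WT libraries, in genome order from top to bottom. Points are libraries; KO 4 to KO 6 (blue) lie below all other libraries in every row, KO 3 (orange square) lies between, and KO 2 (orange circle) lies near WT.

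KO 4 to KO 6 lay below KO 3, and KO 3 below KO 2 and WT, in each of the 13 mitochondrial genes, whereas the place of KO 2 among the WT libraries varied from gene to gene. The median of the 13 genes, as log2 difference from the WT mean, was -0.08, 0.13 and -0.06 in WT 1 to WT 3, -0.04 in KO 2, -0.47 in KO 3, and -1.06, -1.11 and -1.32 in KO 4 to KO 6. For the 94 nuclear members tested, the same median was -0.04, 0.15 and -0.11 in WT and -0.32, -0.15, -0.20, -0.10 and -0.21 in KO 2 to KO 6. KO 2, which was nearest to WT in mitochondrial transcripts, had the lowest nuclear median.

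In KO 4 to KO 6 against WT all 13 mitochondrial genes were called lower (median log2 fold change -1.19), where 42.8% of all genes tested were called in either direction and 20.5% lower. In KO 2 and KO 3 against WT none of the 13 was called by edgeR, where 0.891% of all genes were, and 0 had an unadjusted p under 0.05, where 19% of all genes did. The median there was -0.23, the same as for the nuclear members.

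The mitochondrial ribosomal RNAs, which are not members, did not all have the level of the messenger RNAs. mt-Rnr1 was called lower, with a log2 fold change of -0.78 and an edgeR adjusted p of 0.0280. mt-Rnr2 was at 1671, 2053 and 1826 CPM in WT and 2018, 1283, 1640, 1461 and 1316 CPM in KO 2 to KO 6, with a log2 fold change of -0.26 (edgeR adjusted p 0.302). Its KO 4 to KO 6 levels lay below every WT library, but much nearer to WT than those of the 13 members.

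Counts of several mitochondrial genes are divided with near-identical sequence in the nuclear genome. A block on chromosome 1 (chr1:24611535-24616197, GRCm38, minus strand) holds 7 annotated genes of which at least 90% of the 31-base words occur in 1 mitochondrial gene, and 5 of them are in the table. Gm28661 (chr1:24614885-24615565), a copy of mt-Co2 with no mismatch, received 43379, 91446 and 15668 counts in WT 1 to WT 3 and 0, 23906, 2797, 4707 and 9266 in KO 2 to KO 6. Gm29216 (chr1:24615706-24616197), a copy of part of mt-Co1 with 6 mismatches, received 51397, 77933 and 51743 counts in WT. KO 2 had 36278 and KO 3 had 31569, while KO 4 to KO 6 each had 0. The copy counts thus varied between libraries of 1 group by much more than the mitochondrial genes did. The first stretch of Gm29216 is shown with that of mt-Co1 because the mismatches lie there, with the base at position 1066 in capitals, counted from 1 at the first base of mt-Co1.
mt-Co1 from position 1054: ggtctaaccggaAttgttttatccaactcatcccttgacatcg
Gm29216 at the same place: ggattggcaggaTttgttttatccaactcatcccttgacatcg
The substitutions, with the mitochondrial base first, are T1056A, C1057T, A1059G, A1060G, C1062A and A1066T. Gm28438, the copy of mt-Nd3, differs by T3C alone, counted from the first base of mt-Nd3.

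Adding each copy's counts to its mitochondrial gene, an alternative chosen after seeing the data, gave WT libraries of mt-Co2 that lay closer together, at 8236 ± 779 CPM in place of 5805 ± 1501 (SD, n = 3). The summed level of mt-Co2 and Gm28661 was 7476, 9033 and 8200 CPM in WT and 7617, 5699, 3630, 3648 and 2954 CPM in KO 2 to KO 6. Its log2 fold change moved from -0.43 to -0.81. For mt-Co1 the sum gave a log2 fold change of -0.91 and an edgeR adjusted p of 0.0436, and it was again the only mitochondrial gene called, where 2.77% of all genes were called lower. The summed share of counts was 7.88% ± 0.580 in WT (SD, n = 3) and 4.33% ± 1.502 in KO (SD, n = 5). The 6 mitochondrial genes without such a copy had a median log2 fold change of -0.71.

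**Figure D3:**
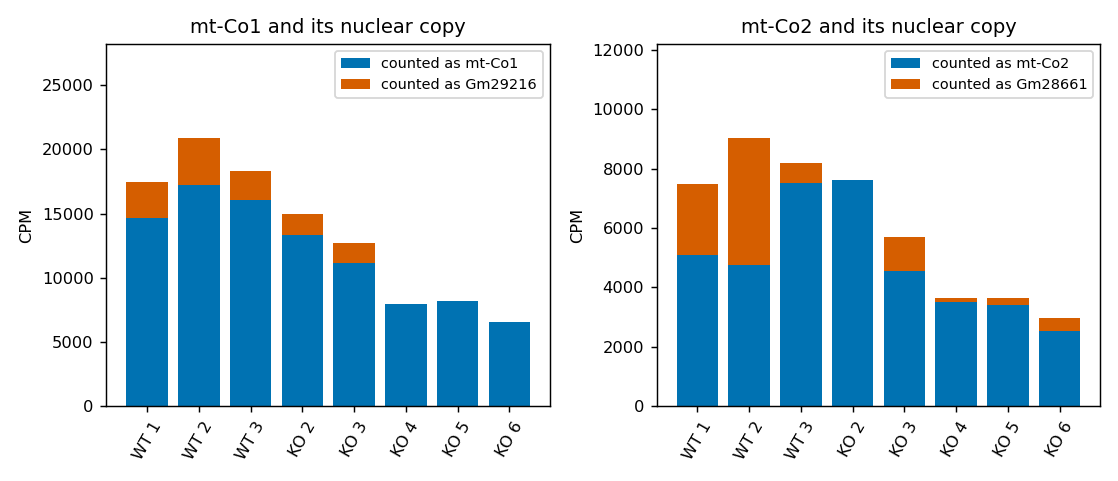
CPM counted as mt-Co1 or mt-Co2 (blue) and as their nuclear copies Gm29216 and Gm28661 (orange), stacked for each library. The copies take up to 47.4% of the pair in WT 2 for mt-Co2, and Gm29216 is at 0 in KO 4 to KO 6.

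Among the 94 nuclear members tested, 17 were called lower, against 2.84% of all genes, and 1 higher, against 4.74%; the latter, Ndufb4b, passed the filter through its KO libraries. Over all genes this was 956 higher and 573 lower, which became 566 and 787 when libraries were scaled by size alone. The median log2 fold change was -0.22 (-0.14 without WT 2), and 25 of 94 were positive, against 10100 of 20167 genes. Cox6a2 and Ndufb11b had too few counts to be tested. The 17 that fell are Ndufb1, Ndufb4 and Ndufs4 of complex I, Sdhd of complex II, Uqcrb and Uqcr11 of complex III, Cox6c, Cox7a2, Cox7b, Cox7c, Cox8b and Ndufa4 of complex IV, Atp5mj, Atp5me, Atp5mk and Atp5pb of complex V, and the assembly factor Ndufaf5. Every KO library lay below every WT library for 31 nuclear members, against 10.1% of all genes. The number depended on single libraries: 17 became 3, 4 and 5 without KO 4, KO 5 and KO 6, where 0.559%, 0.632% and 0.949% of all genes were called lower. It became 1, 0 and 3 without WT 1, WT 2 and WT 3, where 0.212%, 0.23% and 0.298% were. Without KO 2 and KO 3 it was 25 and 30, where 6.23% and 7.85% of all genes were called lower.

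Most of the called genes encode short accessory subunits. Of 25 nuclear members with a protein under 100 residues, 10 were called lower and 2 had a positive log2 fold change, with a median of -0.37. Of all genes of any length 2.84% were called lower, and the share among all genes with short proteins was not computed. Of 42 members of 100 to 200 residues, 4 were called lower, with a median of -0.22. Of 24 longer members, 2 were called lower and 14 were positive, with a median of 0.10, which was -0.01 with an offset for GC content and -0.05 when KO 2 and KO 3 alone were compared with WT. With an offset for transcript length the median under 100 residues was -0.19. Spearman's rho of coding length with log2 fold change was 0.54 over 91 nuclear members and 0.23 over 14719 genes, and with the length offset 0.35 and 0.12. Members are not replicates, and short genes share other features, including transcript length.

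Whether catalytic or accessory subunits had more calls in either direction depended on the fit. The share called lower was larger in the accessory subunits by edgeR, DESeq2 and limma voom. None of the 17 nuclear genes for the core of complex I, the catalytic pair of complex II, the Rieske and core proteins of complex III or the F1 head of complex V was called by edgeR, 8 had an unadjusted p under 0.05 (27.3% of all genes did), DESeq2 called 1 higher and 1 lower (of all genes 9.74% and 5.78%), and limma voom 7 higher and 4 lower (20.3% and 20.6%). Of the 17, 9 had a positive log2 fold change and the median was 0.05, with -0.06 in KO 2 and KO 3 against WT, 0.08 in KO 4 to KO 6 against WT and -0.07 with the GC content offset. Of the other 69 nuclear subunits tested, edgeR called 16 lower and 1 higher, with a median of -0.25, DESeq2 25 and 2, and limma voom 32 and 6. By limma voom the share called in either direction was thus larger in the catalytic genes, through those called higher. The quality weights of limma voom were 0.213 and 0.272 for KO 2 and KO 3 and 1.18 to 2.28 for the other libraries. This division by role was made after the values were seen, and catalytic subunits are also the longer ones.

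**Figure D4:**
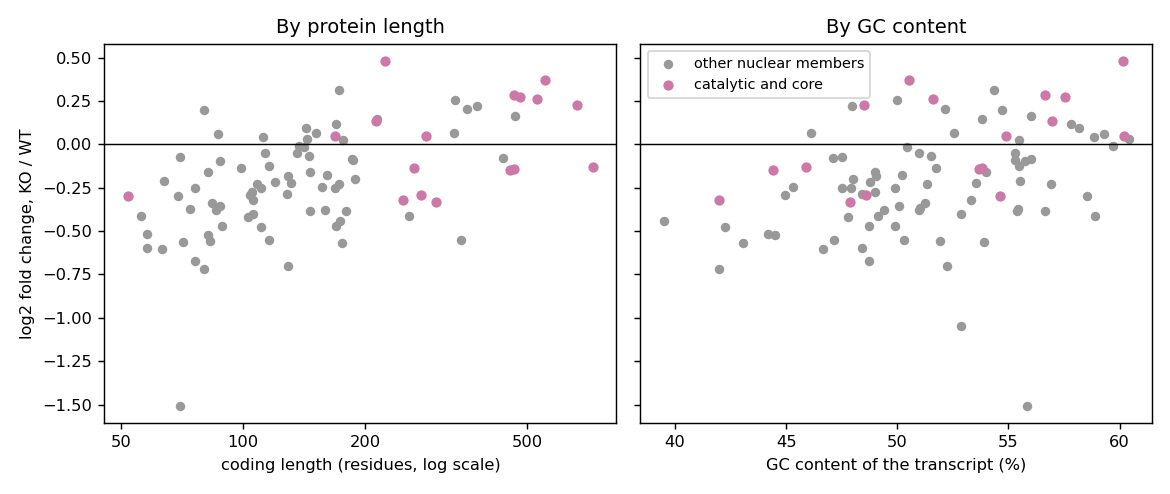
Log2 fold change (KO over WT) of nuclear members against the length of the encoded protein (residues, log axis) and the GC content of the transcript (percent). Each point is a gene; catalytic and core subunits (pink) lie mostly above the other members (grey). Ndufb4b is not drawn. The protein length is known for 91 of 93 genes, and not for Ndufb1.

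In nuclear complex I, 3 of 39 genes tested were called lower and 1 higher, with a median of -0.13 (-0.04 without WT 2). Calls by complex over all libraries, here and below, stand against 2.84% of all genes called lower and 4.74% higher. Ndufb1, an accessory subunit of the membrane arm, was at 45.2, 68.3 and 48.4 CPM in WT and 29.1, 33.4, 26.3, 23.1 and 18.9 CPM in KO 2 to KO 6. The groups did not overlap, and the log2 fold change of -1.04 (SE 0.18, edgeR adjusted p 0.0138) was the lowest among nuclear genes of complex I. Ndufb4, also of the membrane arm, fell from 34.8 ± 5.82 CPM (SD, n = 3) to 21.3 ± 3.55 CPM (SD, n = 5), with a log2 fold change of -0.70 and an edgeR adjusted p of 0.0269.

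Counts of Ndufb4 are uncertain because all 31-base words of Ndufb4c occur in it. Ndufb4b, the 1 member that was called higher, had 4, 18 and 0 counts in WT and 70, 25, 35, 92 and 71 counts in KO 2 to KO 6. It passed the filter on low counts through the KO libraries, and with no filter edgeR did not call it (adjusted p 0.0523) while DESeq2 with the filter did (adjusted p 0.0181), so its call is given as a description only. It is not in the annotation used here, so its sequence was not compared. The 3 genes summed to 54.4, 61.8 and 53.5 CPM in WT and 38.0, 45.3, 41.1, 42.0 and 37.4 CPM in KO, which did not overlap.

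The 7 core subunits of complex I were mixed, with 3 positive and 4 negative log2 fold changes, a median of -0.13 and no edgeR call over all libraries, where 2 had an unadjusted p under 0.05. Ndufv1, which binds NADH, was at 104, 116 and 108 CPM in WT and 130, 107, 135, 148 and 144 CPM in KO 2 to KO 6, with a log2 fold change of 0.28 (edgeR adjusted p 0.138). Ndufv2, its neighbour in the NADH-oxidising module, had -0.32 (edgeR adjusted p 0.0855), and Ndufs3 and Ndufs1 each had -0.13. Ndufs7, which carries an iron-sulfur cluster near the ubiquinone site, was at 34.5, 37.9 and 33.0 CPM in WT, 29.0 and 29.5 CPM in KO 2 and KO 3, and 53.9, 67.0 and 65.7 CPM in KO 4 to KO 6. The KO sets lay on either side of WT, and the log2 fold change over all libraries was 0.48 (edgeR adjusted p 0.292). In KO 4 to KO 6 against WT it was 0.83, with an edgeR adjusted p of 1.94e-05.

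Complex II, which has no mitochondrially encoded subunit, had 1 call among its 4 genes. Sdha, the flavoprotein that oxidises succinate, was at 289, 317 and 293 CPM in WT and 389, 287, 355, 377 and 346 CPM in KO 2 to KO 6 (log2 fold change 0.23, edgeR adjusted p 0.232). Sdhb, its iron-sulfur partner, had a log2 fold change of 0.05 (edgeR adjusted p 0.713). The membrane anchors were lower in every KO library: Sdhd fell from 45.3 ± 4.03 CPM (SD, n = 3) to 34.9 ± 2.35 CPM (SD, n = 5), with a log2 fold change of -0.38 and an edgeR adjusted p of 0.0384. Sdhc was at 81.0, 91.1 and 77.4 CPM in WT and 70.7, 74.2, 53.1, 53.1 and 48.7 CPM in KO, with a log2 fold change of -0.47 and an edgeR adjusted p of 0.0679.

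In complex III, 2 of 8 nuclear genes were called lower, with a median of -0.25 (-0.16 without WT 2). Uqcrb, which helps bind ubiquinone, was at 99.5, 120 and 84.0 CPM in WT and 71.0, 78.2, 74.4, 78.1 and 61.1 CPM in KO 2 to KO 6 (log2 fold change -0.48, edgeR adjusted p 0.0421). Uqcr11, a small accessory subunit, fell from 48.4 ± 3.06 CPM (SD, n = 3) to 36.4 ± 3.06 CPM (SD, n = 5), with -0.41 as log2 fold change (edgeR adjusted p 0.0301). Both KO sets were below WT in these genes. Uqcrc1, a core protein, had a log2 fold change of 0.27 and an edgeR adjusted p of 0.121.

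Nuclear complex IV had 6 of 17 genes tested called lower, where 2.84% of all genes were, and a median of -0.25. Its share of all counts was 0.160% ± 0.0164 in WT (SD, n = 3) and 0.126% ± 0.0105 in KO (SD, n = 5), whereas that of nuclear complex V was 0.273% ± 0.0151 and 0.272% ± 0.0148. Cox7b was at 74.5, 96.1 and 68.96 CPM in WT and 45.8, 58.6, 48.2, 47.3 and 42.3 CPM in KO 2 to KO 6. Its log2 fold change was -0.72 (SE 0.13, edgeR adjusted p 0.0139). Cox7c and Cox6c, both small membrane subunits, had log2 fold changes of -0.60 and -0.68. In these genes KO 2 was near KO 4 to KO 6 and KO 3 was highest of the KO libraries, an order that differs from that of the mitochondrially encoded subunits.

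Ndufa4, now assigned to complex IV, had the highest level per kilobase of transcript among nuclear members of the complex, at 512 CPM per kilobase in WT. It was at 258, 316 and 241 CPM in WT and 210, 195, 192, 196 and 154 CPM in KO 2 to KO 6, with a log2 fold change of -0.52 and an edgeR adjusted p of 0.0365. By comparison mt-Co1 was at 10361 CPM per kilobase in WT and Atp5f1b at 454.

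Several complex IV subunits have isoforms that differ between tissues. Cox4i1, the common isoform, had a log2 fold change of 0.12, and Cox4i2, known from lung, of -0.23, and neither was called. Of the pairs with a liver and a heart or muscle form, Cox7a2 fell with a log2 fold change of -0.56 (edgeR adjusted p 0.0285) while Cox7a1 had 0.20 (edgeR adjusted p 0.602). Cox8b, the muscle form, was low throughout, at 3.23, 2.82 and 3.11 CPM in WT, 1.87 and 1.62 CPM in KO 2 and KO 3, and 0.640, 0.613 and 0.592 CPM in KO 4 to KO 6. Its log2 fold change was -1.51 (SE 0.39, edgeR adjusted p 0.0445). Of 10 muscle markers 4 were in the table, and their sum was 7.29 to 7.68 CPM in WT and 3.92 to 7.18 CPM in KO; their part in the fall of Cox8b was not tested. Cox8a, the common form, had a log2 fold change of -0.30 (edgeR adjusted p 0.222).

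In nuclear complex V, 4 of 18 genes were called lower, with a median of -0.31. The small membrane subunits were all negative and 3 of 5 were called. Atp5mj was at 86.1, 117 and 86.7 CPM in WT and 63.1, 76.8, 66.3, 63.0 and 50.4 CPM in KO 2 to KO 6 (log2 fold change -0.60, edgeR adjusted p 0.0340). Atp5me, which helps shape the dimer of the synthase, fell from 54.2 ± 9.78 CPM (SD, n = 3) to 36.7 ± 5.90 CPM (SD, n = 5), with -0.56 as log2 fold change (edgeR adjusted p 0.0470).

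The F1 head was mixed: 3 of its 5 genes had a positive log2 fold change and 2 a negative one, and none was called by edgeR over all libraries, where 4 had an unadjusted p under 0.05. Atp5f1b, the catalytic beta subunit, was at 839, 922 and 848 CPM in WT and 1172, 904, 1039, 1084 and 1016 CPM in KO 2 to KO 6 (log2 fold change 0.26, edgeR adjusted p 0.153). Atp5f1a, the alpha subunit, was at 392, 423 and 391 CPM in WT and 537, 423, 525, 572 and 542 CPM in KO 2 to KO 6, with KO 3 at the level of WT 2 and the other KO libraries above WT (log2 fold change 0.37, edgeR adjusted p 0.0737). Atp5f1c, the gamma subunit, was at 138, 161 and 134 CPM in WT and below that range in every KO library, at 128, 127, 113, 109 and 97.8 CPM, with a log2 fold change of -0.33 and an edgeR adjusted p of 0.0868. Atp5f1e had -0.30 and Atp5f1d 0.05. In KO 4 to KO 6 against WT, Atp5f1a and Atp5f1b were called higher and Atp5f1c and Atp5f1e lower, where 22.3% of all genes were called higher and 20.5% lower. The c-ring genes Atp5mc1, Atp5mc2 and Atp5mc3 had log2 fold changes of -0.05, -0.38 and -0.01, and none was called.

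**Figure D5:**
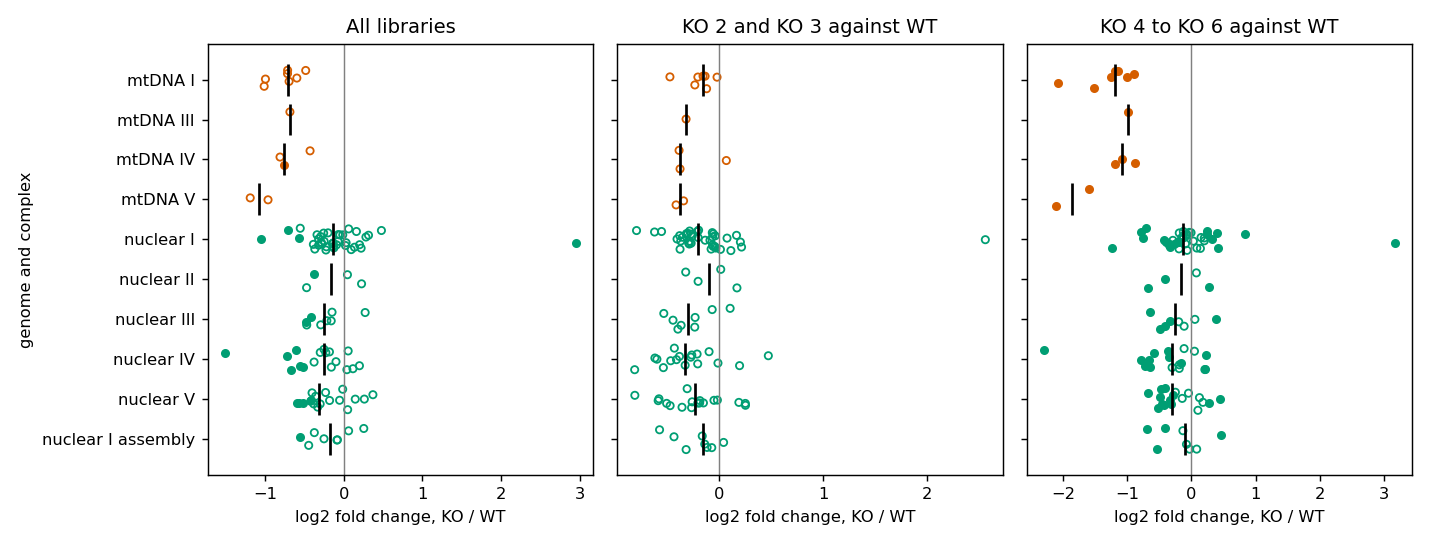
Log2 fold change of each tested member by encoding genome and complex, for all libraries, for KO 2 and KO 3 against WT and for KO 4 to KO 6 against WT. Filled points were called by edgeR, vertical bars are medians; all mitochondrially encoded genes are filled and negative in KO 4 to KO 6, and no member is filled in KO 2 and KO 3.

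Among the 8 complex I assembly factors, 1 was called lower. Ndufaf5, which modifies a core subunit during assembly, was at 23.8, 25.02 and 24.6 CPM in WT and 14.9, 18.1, 15.9, 17.6 and 17.1 CPM in KO 2 to KO 6. The groups were far apart for their spread, with a log2 fold change of -0.55 (SE 0.10, edgeR adjusted p 0.0161). The median of the 8 was -0.17.

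The median of the nuclear members differed little between the KO sets. In KO 2 and KO 3 against WT no nuclear member was called by edgeR, 34 of 95 had an unadjusted p under 0.05, where 19% of all genes did, and the median was -0.23 with 16 of 95 positive. In KO 4 to KO 6 against WT 14 were called higher and 39 lower, with a median of -0.19, where 22.3% of all genes were called higher and 20.5% lower. Of the 17 catalytic and core genes 7 were called higher and 4 lower there.

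Fold changes were related to the GC content of transcripts. The mitochondrial members hold 31.9% to 41.1% GC and the nuclear ones 39.5% to 60.4%. Spearman's rho of GC content with log2 fold change was 0.40 over 93 nuclear members and 0.46 over 18028 genes. With a library-wise offset for GC content, the mitochondrial median moved from -0.71 to -0.37 and mt-Co1 stayed called (edgeR adjusted p 0.0419), while the nuclear median was -0.26 with 22 called lower, where 3.05% of all genes were. Within KO 2 and KO 3 against WT that offset gave a mitochondrial median of -0.08, with the complex I genes at 0.03, and within KO 4 to KO 6 against WT a median of -0.57 with 12 of 13 called lower, where 15.8% of all genes were. With an offset for transcript length, the nuclear median moved to -0.07 with 7 called lower and 1 higher, where 2.88% of all genes were called lower and 4.42% higher, and no mitochondrial gene was called.

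Other genes of the pathway were read from lists, whose edgeR calls over all libraries stand against 2.84% of all genes called lower and 4.74% higher. In KO 4 to KO 6 against WT edgeR called more genes of each list, some higher and some lower. There 22.3% of all genes were called higher and 20.5% lower. Of 12 genes for transcription and copy number of mitochondrial DNA, none was called by edgeR over all libraries, 5 had an unadjusted p under 0.05 (27.3% of all genes did), DESeq2 called 2 (15.5% of all genes were) and limma voom 7 (40.9%). In KO 4 to KO 6 against WT, Tfam was called lower (log2 fold change -0.43, edgeR adjusted p 0.000968) and Polrmt higher (0.65, edgeR adjusted p 4.6e-05). Of 16 genes for mitochondrial RNA processing, 1 was called lower over all libraries, Fastkd2 (log2 fold change -0.51), which binds mitochondrial RNA. In KO 4 to KO 6 against WT, Ptcd1 was called higher (0.56, edgeR adjusted p 7.4e-05) and Pnpt1 lower (-0.52, edgeR adjusted p 0.00128). Of 10 regulators of mitochondrial biogenesis, 1 was called lower, the coactivator Ppargc1b, with a log2 fold change of -0.62 and an edgeR adjusted p of 0.0325. It was at 52.7, 46.5 and 59.2 CPM in WT and 33.7, 28.2, 31.4, 33.2 and 45.1 CPM in KO 2 to KO 6, and it was the only one of these genes called in KO 2 and KO 3 against WT (edgeR adjusted p 0.0454).

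Of 37 assembly factors that are not members, some of them for complex I, 2 were called lower: Sdhaf4 of complex II (log2 fold change -0.63, edgeR adjusted p 0.00920) and Cox16 of complex IV (-0.40). Of 13 genes of the TCA cycle, Ogdh, a subunit of oxoglutarate dehydrogenase, was called higher with a log2 fold change of 0.50, and Sucla2, of succinyl-CoA synthetase, lower with -0.34. Of 21 genes for mitochondrial content and cristae, 3 were called lower. They are Cycs, cytochrome c itself, with -0.67, Chchd3 of the cristae junction with -0.58 and the chaperonin Hspe1 with -0.37. The outer membrane channel gene Vdac1 had a log2 fold change of -0.02.

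Promoters of nuclear members were searched for 2 short motifs on both strands, from 250 bases before to 50 after the RefSeq start site (GRCm38.p6), for the 63 of 96 genes that matched. The ETS motif CCGGAAG was in 20.6% of these members against 9.93% of 27025 genes in all, and the YY1 motif AAGATGG in 15.9% against 7.28%. A match is a description of these letters and not a binding site.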

How the data were processed

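The authors deposited 1 table of gene counts for 8 retina libraries, whole numbers treated as estimated counts because the submitters' processing notes name Salmon 1.10.2, with Trim Galore, DESeq2 and GRCm38, without role or order. Annotation, rounding and strand are not given in the sources used here. The lowest row total was 16. GENCODE M21 (GRCm38) held 22121 of 26824 genes and gave positions, lengths and GC content, which may differ from those of the authors' annotation.

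Counts were scaled by TMM in edgeR 4.0.16 (R 4.3.3), filtered by filterByExpr and compared by the quasi-likelihood test without covariates. Benjamini-Hochberg adjustment of p-values ran over all genes tested. Levels are TMM-scaled CPM. Members, lists and roles were chosen with earlier results of these data known. Named genes are all mitochondrial members, complex II, tissue isoforms, the largest called changes and highest levels per length in each complex, and called genes of the pathway lists; others were named after their values were seen. The edgeR steps were checked on simulated data with a common dispersion taken from the WT libraries. That check does not cover the wider spread among the KO libraries. The chi-square per degree of freedom between libraries of 1 group was 5.85 or more, so none was a duplicate. P-values measure the spread between these samples. Intervals and floors cover counting error only. Replicate numbers 2 and 3 occur in both groups, with nothing in the labels to pair mice by number. Alternatives were other scalings, DESeq2 1.42.0, limma voom 3.58.1 with quality weights, no filter, GC and length offsets, left-out libraries and replicate blocks.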

Additional observations from a re-analysis of the deposited data

Results flagged for a closer look

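In 56 sets of 5 KO values examined gene by gene, 5 held 1 library far from the other 4 by Dixon's ratio (chance flags about 1 in 20, here 2.80). Cox6b2 was low in KO 2 (ratio 0.840), at 3.13 CPM where the other KO libraries had 5.42 to 6.01. Cox8a was low in KO 2 (ratio 0.828), at 89.0 CPM against 129 to 140. Ndufa4 was low in KO 6 (ratio 0.722), at 154 CPM against 192 to 210. Cox16 was high in KO 4 (ratio 0.832), at 19.2 CPM against 16.2 to 16.7. Ogdh was low in KO 3 (ratio 0.742), at 189 CPM against 251 to 277.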

How the results depend on the processing

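All log2 fold changes of the 13 mitochondrial members stayed negative with DESeq2, limma voom, each other scaling, no filter and each left-out library, but their calls did not hold. The 22 named genes that were called kept their sign in 613 of 616 comparisons with an alternative; all 3 that turned were those of Cox16 given below. Of named genes not called, 14 changed sign in some alternative. The causes were not tested.

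With DESeq2, 3 members were called higher and 30 lower (27 nuclear and 3 mitochondrial), among 1965 genes called higher and 1165 lower in all. With limma voom and quality weights these were 14 higher and 52 lower (39 nuclear and 13 mitochondrial), among 4084 and 4164. With no filter on low counts no member was called higher and no mitochondrial member lower. With DESeq2's size factors in edgeR no mitochondrial member was called lower. With library size alone 3 were, and all genes split into 566 higher and 787 lower in place of 956 and 573.

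With the GC content offset no member was called higher, and the medians were -0.26 for nuclear complex II and -0.37 for nuclear complex IV, also with the nuclear copies added. The log2 fold change of Cox16 turned to 0.0037, and to 0.0035 with the copies added. With the transcript length offset 7 members were called lower, all nuclear, and 0 mitochondrial. The nuclear median was then -0.073, with -0.037, -0.096, -0.098 and -0.13 for nuclear complexes I, II, IV and V and -0.072 for the assembly factors.

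For KO 2 and KO 3 against WT, 0 members were called, among 126 genes called higher and 54 lower. The medians were -0.23 for mitochondrial members, -0.15, -0.37 and -0.37 for mitochondrial complexes I, IV and V and -0.089 for nuclear complex II. The mitochondrial share differed by -1.60 percentage points and the log2 ratio by -0.15. With the GC offset there, chosen after seeing the data, 0 members were called among 95 higher and 41 lower, and the medians were -0.082 for mitochondrial members and 0.030, -0.25 and -0.14 for mitochondrial complexes I, IV and V. With the copies added there, 0 members were called among 126 and 55, and mitochondrial complex IV was at -0.39.

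For KO 4 to KO 6 against WT, 14 members were called higher and 52 lower (39 nuclear and 13 mitochondrial), among 4379 and 4037. The medians were -1.19 for mitochondrial members, -1.19 and -1.85 for mitochondrial complexes I and V and -0.10 for the assembly factors. With the GC offset there, 6 were called higher and 64 lower (52 nuclear and 12 mitochondrial), among 2866 and 2794. Nuclear complexes II and IV were then at -0.30 and -0.44, Sdhb turned to -0.18 and Cox16 to 0.19. With the copies added there, 14 were called higher and 53 lower (40 nuclear and 13 mitochondrial), among 4266 and 4159. The mitochondrial median was then -1.26, and mitochondrial complexes I, IV and V were at -1.20, -1.28 and -1.89.

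The replicate numbers 2 and 3 gave a replicate block of 4 libraries. Same-numbered libraries deviated from their group means with a correlation of -0.19. With 4 libraries, and lens markers at 44640 CPM in KO 3, this cannot show whether the numbers pair mice. With the replicate block 0 members were called, among 38 genes called higher and 14 lower. With no replicate block in the same libraries 0 were called, among 12 and 2. Mitochondrial complex I had medians of -0.21 with the block and -0.18 without. In both, the mitochondrial share differed by -1.81 and the nuclear share by -0.12 percentage points and the log2 ratio by -0.17. With the replicate block and the GC offset, 0 were called among 33 and 16. The medians were then -0.19 for mitochondrial members, -0.071, -0.33 and -0.21 for mitochondrial complexes I, IV and V and -0.37 for nuclear complex IV. With the pairing crossed, chosen after seeing the data, 0 members were called higher and 10 lower, all nuclear, among 340 and 187, with -0.21 for mitochondrial complex I.

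With 1 library left out at a time, 0 to 7 members were called higher and 0 to 38 lower, with 0 to 30 nuclear and 0 to 13 mitochondrial members among the latter. All genes gave 87 to 2429 calls higher and 44 to 1563 lower, and the medians ran from -0.25 to -0.14 for the assembly factors and from -0.24 to -0.14 for all nuclear members, with -0.14 there without WT 2. Depth limits Cox6a2, Ndufb11b and Ndufb4b, which lie near the floor in some libraries.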
